A study of Mus musculus with 4 samples.

Results

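Type I interferon-stimulated genes were read in activated CD4+ T cells from WT mice and from mice expressing the R111A form of Regnase-1. The members were chosen by name, as the rows of the deposited expression table whose gene symbol was on a list of 46 interferon-stimulated genes. The list was chosen with earlier results of these data known, so counts over it are not independent of those results. All 46 were found among the 16142 genes of the table, and each of the 46 was above 0 in at least 1 library.

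Type I interferons signal through the receptor chains IFNAR1 and IFNAR2 and the kinases JAK1 and TYK2, which activate STAT2. STAT2 and IRF9 are parts of the ISGF3 complex, which binds interferon-stimulated response elements in the promoters of antiviral genes. In T cells the same genes are known to respond to type I interferon and, in part, to interferon-γ, and several of them also respond to IRF3 or IRF7 without an interferon signal.

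Polyadenylated RNA was sequenced from 2 WT and 2 R111A libraries of splenic CD4+ T cells. WT cells came from C57BL/6 (B6) mice. R111A cells came from Cd4CreERT2 LSL-R111A fl/fl mice on the same background, in which a tamoxifen-activated Cre expressed from Cd4 removes a STOP cassette at Rosa26, so that the CAG promoter drives a Regnase-1 whose MALT1 cleavage site is mutated, together with EGFP. According to the methods, mice of either genotype were 6 to 12 weeks old and of both sexes unless stated otherwise, and received tamoxifen i.p. at 75 mg/kg on each of 5 days. CD4+ cells were enriched with magnetic beads and sorted by flow cytometry, and for mice with a GFP reporter the methods describe a first gate on GFP+ cells. Cells of both groups were then activated by anti-CD3 (5 µg/mL) with anti-CD28 (1 µg/mL) over 12 h. R111A and WT cells thus differ in Cre, EGFP and transgene together, and possibly in the gate, and these cannot be told apart. The labels do not say whether the 2 libraries of a group came from separate animals, so the p-values measure the spread between these libraries, which may be technical.

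Values are FPKM, that is, fragments scaled by transcript length and by the mapped fragments of the library. The deposited values summed to 801475 and 836143 FPKM in the WT libraries and to 1053551 and 1012215 FPKM in the R111A libraries. The 10 most abundant genes held 10.4% and 10.9% of the WT sums and 16.3% and 15.6% of the R111A sums. The depth behind each value is unknown, since the table holds no counts. Zc3h12a, the gene of Regnase-1, measured 16.97 and 15.72 FPKM in WT against 196 and 131 FPKM in R111A, so both R111A libraries carried the higher level that a transgene would give (log2 fold change 3.22, SE 0.19, adjusted p = 9.2e-06). The table does not separate the transgene from the endogenous gene.

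Differences were tested with limma on log2(FPKM + 1) over 9831 genes whose mean reached 1 FPKM. A log2 fold change is R111A minus WT on that scale, which understates the change of genes with low values, and p-values were adjusted over all genes tested by the Benjamini-Hochberg method. Of the 46 interferon-stimulated genes, 38 had a mean of at least 1 FPKM and 8 were below it. Of those 38, 9 had a WT mean under 1 FPKM and passed through their R111A level, whereas 0 passed through their WT level, so counts over the 38 favour higher values in R111A.

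Among the 38, 28 were higher and 3 were lower in R111A at an adjusted p under 0.05, and 7 did not pass. By the same rule 21.2% of all genes tested were higher and 32.1% were lower. When a 2-fold change was also required, 23 were higher, against 8.52% of all genes tested, and 0 were lower, against 8.34%. That count depends on the scale, with 14 higher and 2 lower by 2-fold after rescaling each library to the same sum (TPM) and 10 higher with a pseudocount of 5 FPKM in place of 1. Without the filter on low values, and so over all 46, 33 were higher and 3 lower, against 17.2% and 19.8% of 14448 genes. Both R111A libraries lay above both WT libraries for 38 of the 46 and below both for 4, against 33.0% and 36.2% of the same 14448 genes. The 4 whose groups overlapped were Eif2ak2, Adar, Ly6e and Ifi204.

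The median log2 fold change of the 38 was 1.04, and that of all genes tested was -0.12, a difference of 1.16. Since the R111A libraries have the larger FPKM sums, TPM rescaling lowered the median of all genes to -0.42 and that of the 38 to 0.79, a difference of 1.204. On the TPM scale 25 of the 38 were higher and 4 lower, while the whole table had 1335 higher and 5096 lower genes in place of 2088 and 3152. The largest differences were found in members with low or moderate levels. All 4 members with a mean of 50 FPKM or more differed by less than 2-fold, 1 upward and 2 downward past the threshold. With 2 libraries against 2, an exact two-sided permutation test of a single gene cannot give a p under 0.333, so the calls rest on the spread that limma shares between genes.

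**Figure D1:**
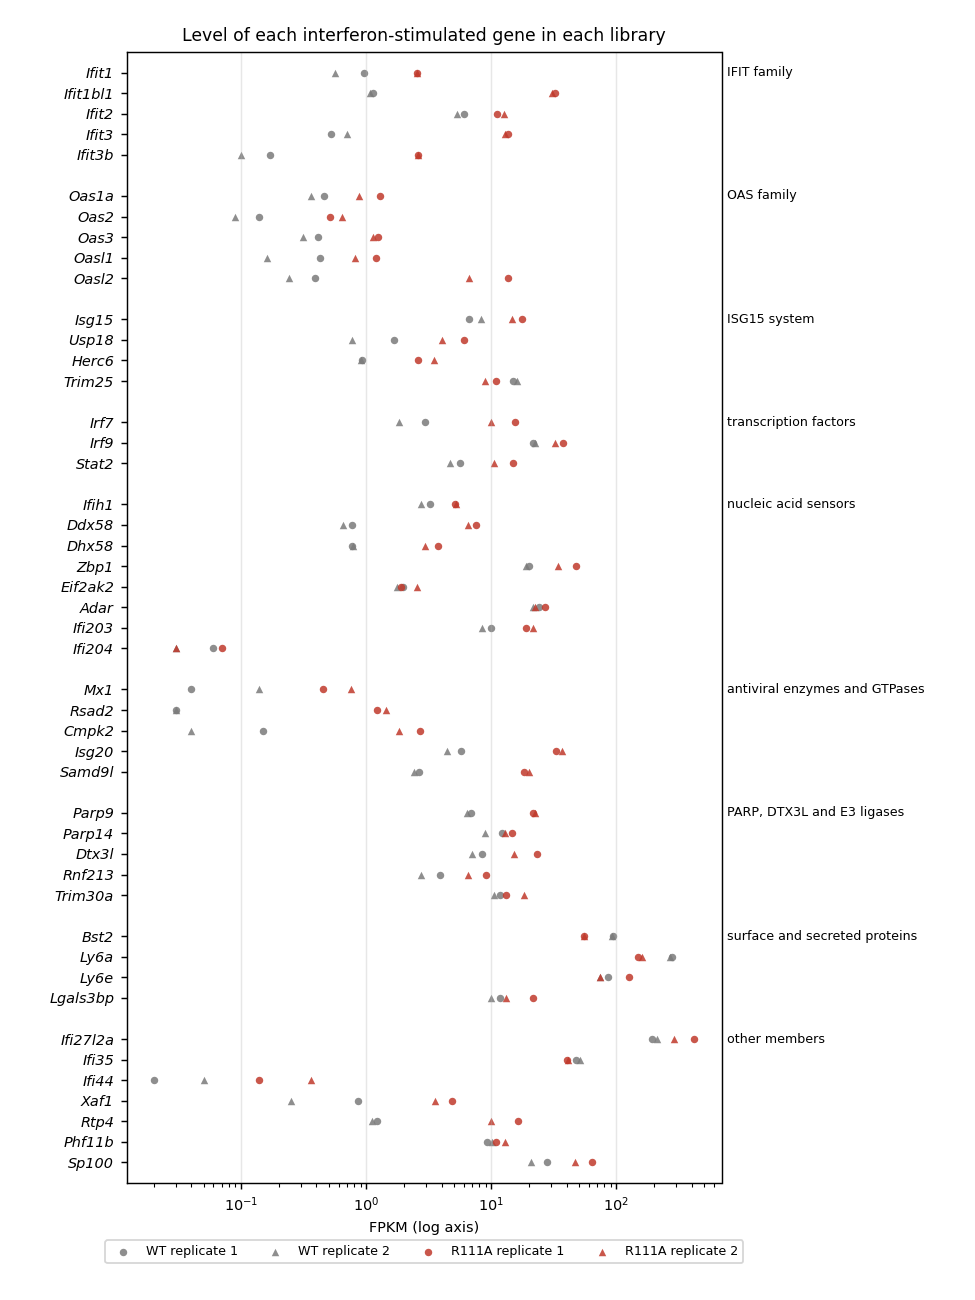
FPKM of each of the 46 interferon-stimulated genes on a log axis, grouped by role, with WT libraries in grey and R111A libraries in red (circles for replicate 1, triangles for replicate 2). Red points lie to the right of grey points for 38 genes and to the left for 4, among them Ly6a and Bst2.

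**Figure D2:**
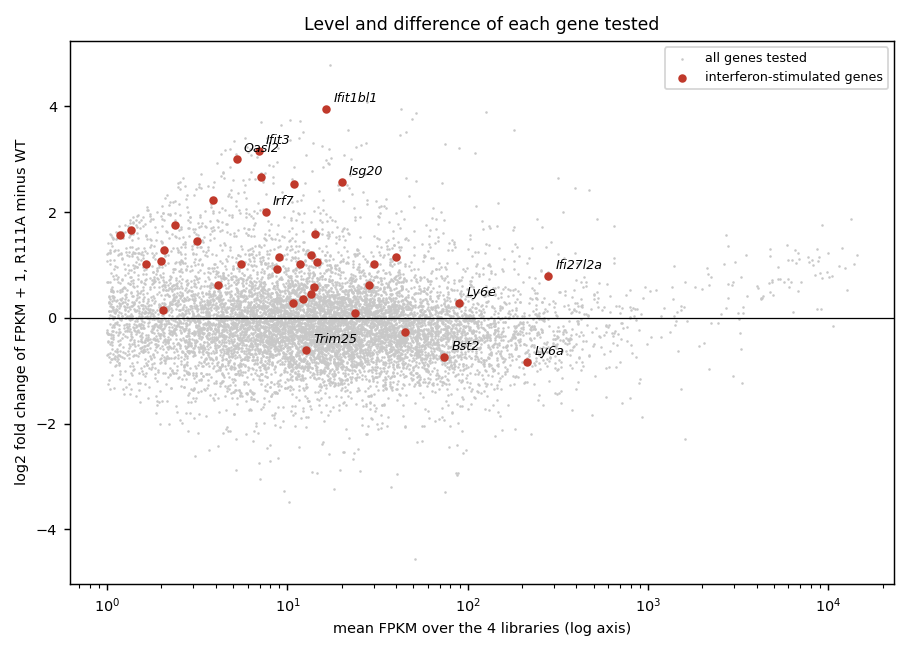
Mean FPKM over the 4 libraries (log axis) against the log2 fold change of FPKM + 1, R111A minus WT, for the 9831 genes tested in grey and the 38 interferon-stimulated genes among them in red. The members above a log2 fold change of 2 have means between 3.87 and 20.04 FPKM, and the 3 that fell have means between 12.7 and 214 FPKM.

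Beside these counts, markers of other cell types moved between the groups, and their part in the results was not tested. The 8 T cell markers were high in every library, summing to 2019 and 2009 FPKM in WT and 1740 and 1600 FPKM in R111A, with Cd3g the most abundant, 2 of the 8 higher and 5 lower in both R111A libraries. This count and those of the marker lists below stand beside 33.0% higher and 36.2% lower of all genes above 0. Cd4 itself, which helps define the sorted cells, had WT values of 158 and 131 FPKM and R111A values of 70.7 and 51.4 FPKM. Cd3d, of the same receptor complex as Cd3g, went the other way, from 205 and 214 FPKM to 275 and 267 FPKM, and Cd2 was the other gene higher in both R111A libraries. On the TPM scale the log2 fold change of Cd3d was 0.04 in place of 0.37, and that of Cd2 was -0.16 in place of 0.18. By that scale 0 of the 8 were higher and 6 lower past the threshold. In bulk RNA, fewer cells of a type and less RNA per cell cannot be told apart.

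Markers of monocytes and macrophages (8 genes) summed to 2.97 and 1.68 FPKM in WT and 15.3 and 12.2 FPKM in R111A. Of the 8, 7 were higher and 1 lower in both R111A libraries, beside 33.0% and 36.2% of all genes above 0. The most abundant gene of the list was Cd68, a lysosomal protein, which rose from 1.54 and 0.78 FPKM to 8.89 and 6.81 FPKM (adjusted p = 8.4e-05), and Lyz2 rose from 0.45 and 0 FPKM to 3.01 and 2.37 FPKM (adjusted p = 0.00025). Below the filter, the macrophage gene Adgre1 was at 0.04 FPKM in each WT library and 0.77 and 1.04 FPKM in R111A, Fcgr3 at 0.05 FPKM in each WT library and 1.44 and 0.76 FPKM in R111A, and Itgam at 0 and 0.03 FPKM in WT and 0.54 and 0.39 FPKM in R111A. Csf1r differed least, at 0.03 and 0.05 FPKM in WT and 0.07 FPKM in each R111A library, and Mpeg1 was lower. NK cell markers (6 genes, Eomes the most abundant) summed to 1.24 and 1.00 FPKM in WT and 8.61 and 6.73 FPKM in R111A, with all 6 higher in both R111A libraries. Of these, Eomes, which some T cells also express, rose from 0.88 and 0.80 FPKM to 6.68 and 4.32 FPKM (adjusted p = 0.00011), and the NK receptor gene Ncr1 was at 0.05 and 0 FPKM in WT and 0.30 and 0.12 FPKM in R111A.

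Erythroid markers (6 genes) summed to 0.66 and 0.70 FPKM in WT and 12.93 and 12.97 FPKM in R111A, almost all of it Hba-a1, while Hba-a2 and Hbb-bs were listed at 0 in all 4 libraries. B cell markers (7 genes, Cd79a the most abundant) summed to 1.84 and 0.89 FPKM in WT and 4.98 and 4.61 FPKM in R111A, with 3 of the 7 higher and 1 lower in both R111A libraries. Cd79a rose from 0.32 and 0.24 FPKM to 2.99 and 2.37 FPKM (adjusted p = 7.7e-05), and Ms4a1, which encodes CD20, was at 0.23 and 0.17 FPKM in WT and 0.18 and 0.22 FPKM in R111A. Cd79b and Blnk were also higher in both R111A libraries. The erythroid, B cell, NK cell and monocyte and macrophage sums were higher in both R111A libraries, and each was under 1% of the T cell sum.

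Plasmacytoid dendritic cells, a major source of type I interferon, had 6 markers that summed to 15.9 and 15.3 FPKM in WT and 16.7 and 12.6 FPKM in R111A, most of it Pacsin1. The mean over the 4 libraries was 13.7 FPKM for Pacsin1 and 0.88 FPKM for Ccr9, the next most abundant, so the sum mostly follows Pacsin1. Whether Pacsin1 RNA came from these cells was not tested. Of the 6, 2 were higher and 2 lower in both R111A libraries, near the 33.0% and 36.2% of all genes above 0. The surface marker Siglech of these cells was at 0.20 and 0.26 FPKM in WT and listed at 0 in both R111A libraries, as was Klk1, at 0.09 FPKM in each WT library. Ccr9, a chemokine receptor gene of these cells and of some T cells, was higher, at 0.33 and 0.21 FPKM in WT and 1.32 and 1.66 FPKM in R111A, and Spib reached 0.35 FPKM at most. Conventional dendritic cell markers (6 genes, Zbtb46 the most abundant) summed to 1.56 and 2.10 FPKM in WT and 2.33 and 2.47 FPKM in R111A, with Itgax at 0 in both WT libraries and at 0.36 and 0.41 FPKM in R111A. Neutrophil markers (6 genes, S100a8 the most abundant) reached at most 2.30 FPKM in a library, with S100a9, Csf3r and Retnlg at 0 throughout.

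CD8+ T cell markers (2 genes, Cd8b1 the more abundant) summed to 7.31 and 6.76 FPKM in WT and 3.88 and 4.46 FPKM in R111A. Treg markers (5 genes, Il2ra the most abundant) summed to 350 and 362 FPKM in WT and 191 and 199 FPKM in R111A, with Foxp3, the defining Treg factor, at 11.3 and 8.78 FPKM in WT and 2.86 and 1.86 FPKM in R111A. Most of the difference in the Treg sum was Tnfrsf18, which activated T cells also express, at 192 and 211 FPKM in WT and 57.4 and 62.4 FPKM in R111A. Il2ra itself stood at 140 and 136 FPKM (WT) and 127 and 129 FPKM (R111A) and did not pass (adjusted p = 0.47), and the groups of Ikzf2 overlapped. On the TPM scale Il2ra passed, at a log2 fold change of -0.44 (adjusted p = 0.011), and all 5 Treg markers were lower past the threshold.

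**Figure D3:**
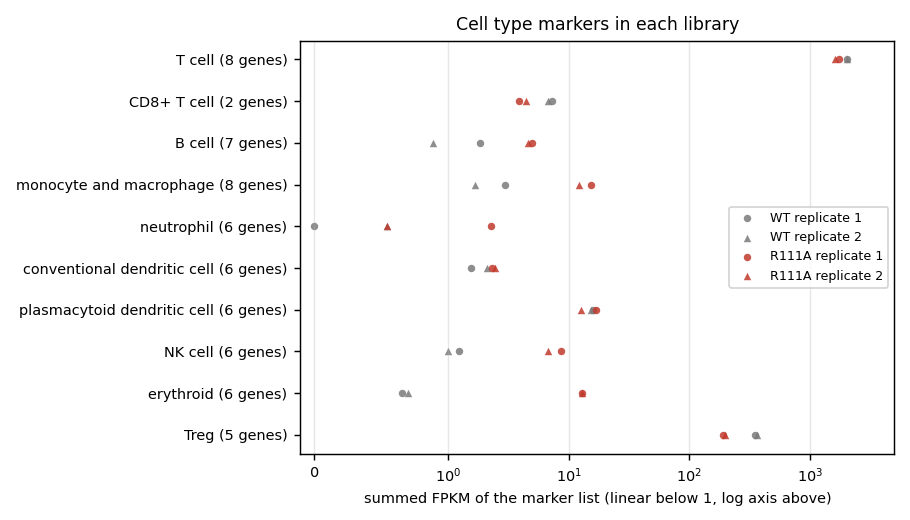
Summed FPKM of each marker list in each library (axis linear below 1 FPKM and logarithmic above), WT in grey and R111A in red. T cell markers sum to between 1600 and 2019 FPKM, while monocyte and macrophage, NK cell, erythroid and B cell lists stay under 16 FPKM and are higher in R111A.

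The promoter windows of some members are shown because 28 of the 38 tested rose and a known element of such genes can be read in some windows. RefSeq windows (GRCm38.p6) reach from 250 bases before to 50 bases after a transcription start, and were matched for 34 of the 46. The others were Oas2, Usp18, Dhx58, Zbp1, Ifi204, Mx1, Parp9, Parp14, Ly6a, Ly6e, Ifi27l2a and Rtp4. The windows were searched on both strands for the core of the interferon-stimulated response element, GAAA, any 2 bases and GAAA, which reads on the other strand as TTTC, any 2 bases and TTTC. It was present in at least 1 window of 16 of the 34 genes (47.1%), and in 1079 of the 27025 genes of the RefSeq table (3.99%). Only 73.9% of the list had a window, under the 80% a check over a list needs, so the 2 shares are void as a comparison. By result, it was found in 9 of the 22 members with a window that rose, 1 of 2 that fell, 3 of 5 that did not pass (Eif2ak2, Phf11b and Trim30a) and 3 of 5 below the filter. Irf7, Irf9, Isg20, Samd9l and Oasl2 rose without a match in their windows. A match is a description of the letters and not of a bound site.

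Stretches before a transcription start of 7 genes, as the promoter table places it, are printed 5′ to 3′ on the strand of the gene, with the matched bases in capitals, chosen among the genes with a match to show its letters in members that were higher and in one that fell. Ifit3 (chr19:34583353-34583436, plus strand) and Ifit3b (chr19:34607749-34607832, plus strand) share the same letters. Ifit1bl1 (chr19:34602043-34602092, minus strand) has 2 windows in that table, and 1 of them is shown. The stretches of these 3 genes lie inside the RefSeq spans of the genes, which begin further upstream, so they precede one start and not every start. Isg15 (chr4:156200855-156200916, minus strand) has 3 overlapping matches, and Bst2 (chr8:71537567-71537622, minus strand) has 2. Stat2 lies at chr10:128270256-128270305 (plus strand) and Rsad2 at chr12:26456543-26456592 (minus strand). No exon of GENCODE M21 overlaps any of these stretches.
Ifit3 and Ifit3b: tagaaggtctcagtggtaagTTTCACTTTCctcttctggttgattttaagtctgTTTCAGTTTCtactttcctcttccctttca
Ifit1bl1: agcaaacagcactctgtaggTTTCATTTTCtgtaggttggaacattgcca
Isg15: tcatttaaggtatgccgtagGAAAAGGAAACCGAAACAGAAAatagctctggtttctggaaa
Stat2: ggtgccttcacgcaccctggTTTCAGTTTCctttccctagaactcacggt
Rsad2: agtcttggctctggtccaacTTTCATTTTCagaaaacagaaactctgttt
Bst2: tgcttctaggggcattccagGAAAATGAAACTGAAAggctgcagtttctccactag

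The factors that carry the interferon response were all higher in R111A. Irf7, which amplifies interferon production and is itself induced by interferon, stood at 2.97 and 1.84 FPKM (WT) and 15.6 and 9.95 FPKM (R111A). Both R111A values were above both WT values, with replicate 1 the higher in either group. Its log2 fold change was 2.003 (SE 0.23, adjusted p = 0.00019), 1 of the 8 largest rises of the list.

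Stat2, the STAT that is used mainly in type I and type III interferon signalling, measured 5.65 and 4.64 FPKM in WT against 14.9 and 10.5 FPKM in R111A. The groups did not overlap, and the log2 fold change was 1.15 (SE 0.19, adjusted p = 0.0011). The promoter stretch of Stat2 shown above holds 1 match to the element.

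Irf9, the DNA-binding partner of STAT2 in ISGF3, had WT values of 21.7 and 22.5 FPKM and R111A values of 37.3 and 32.4 FPKM. Again both R111A libraries were higher, and the log2 fold change was 0.63 (SE 0.14, adjusted p = 0.0050). On the TPM scale the value was smaller, at 0.31, and did not pass (adjusted p = 0.084). Without WT replicate 1 (0.61, adjusted p = 0.081) or WT replicate 2 (0.65, adjusted p = 0.056) the value was kept and the call was lost, within a range of 0.00040 to 0.084 over its 14 alternatives.

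The IFIT proteins bind viral RNA that lacks host cap marks and limit its translation. All 5 listed Ifit genes lie within one stretch of chromosome 19, between 34550550 and 34662981 (GRCm38.p6), and all 5 rose in R111A, where 21.2% of all genes tested did. Of the 5, 3 had a WT mean under 1 FPKM and passed the filter through their R111A level, which favours a rise. With no filter all 5 were higher as well, beside 17.2% of genes. Ifit1bl1 (NCBI gene 667373), a mouse relative of Ifit1, stood at 1.14 and 1.08 FPKM (WT) and 32.5 and 30.8 FPKM (R111A). Replicates lay close together in both groups and the groups were far apart, with a ratio of mean FPKM of 28.5 and a log2 fold change of 3.95 (SE 0.14, adjusted p = 2.7e-06). This log2 fold change was the largest of the 38, although the ratio of Oasl2, with less than 1 FPKM in WT, was 32.1.

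Ifit3 (NCBI gene 15959), of the same family, measured 0.52 and 0.70 FPKM in WT against 13.7 and 12.8 FPKM in R111A. Both WT libraries were under 1 FPKM and both R111A libraries above 10 FPKM, for a log2 fold change of 3.15 (SE 0.14, adjusted p = 3.4e-06). Its close copy Ifit3b was lower, at 0.17 and 0.10 FPKM in WT and 2.58 FPKM in each R111A library. In GENCODE M21 transcripts, 51.2% of the 50-base words of Ifit3 also occur in Ifit3b, so the division of reads between the pair is uncertain.

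Ifit2, which like the others binds RNA, had the highest WT level of the family, at 6.08 and 5.35 FPKM, and was at 11.0 and 12.6 FPKM in R111A (log2 fold change 0.93, SE 0.15, adjusted p = 0.00098). Ifit1, the founding member, measured 0.96 and 0.56 FPKM in WT against 2.53 FPKM in both R111A libraries (log2 fold change 1.013, SE 0.16, adjusted p = 0.00087). For both genes the R111A libraries were above the WT libraries by more than the replicates differed.

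The OAS enzymes sense double-stranded RNA and make 2′-5′ oligoadenylates, which activate RNase L. Oasl2, a related gene, had WT values of 0.39 and 0.24 FPKM and R111A values of 13.6 and 6.61 FPKM. The R111A libraries differed about 2-fold from each other, yet both were far above WT, with a log2 fold change of 3.01 (SE 0.27, adjusted p = 5.2e-05). Oas1a, Oas2, Oas3 and Oasl1 were below the filter, with values of 0.09 to 0.46 FPKM in WT and 0.51 to 1.29 FPKM in R111A. For each of these 4 both R111A libraries were the higher ones, as for 33.0% of all genes above 0, and each had an adjusted p between 0.0055 and 0.033 when no filter was used, a fit in which 17.2% of genes were higher. Oas1a shares 57.6% of its 50-base words with Oas1g, so its value may hold reads of that gene.

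ISG15 is a ubiquitin-like protein that is coupled to other proteins, in mice by the ligase HERC6, and removed by USP18, which also blocks IFNAR2. Isg15 stood at 6.58 and 8.28 FPKM (WT) and 17.6 and 14.6 FPKM (R111A), for a log2 fold change of 1.02 (SE 0.16, adjusted p = 0.0011). Usp18 measured 1.67 and 0.77 FPKM in WT against 6.01 and 4.07 FPKM in R111A, for a log2 fold change of 1.46 (SE 0.23, adjusted p = 0.00095). The modifier and the enzyme that removes it were thus both higher in the 2 R111A libraries. Herc6 had WT values of 0.92 and 0.91 FPKM and R111A values of 2.59 and 3.51 FPKM (log2 fold change 1.07, SE 0.16, adjusted p = 0.00066), though 23.8% of its 50-base words also occur in the gene model Gm45193.

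Trim25, an E3 ligase that acts on RIG-I and can also couple ISG15, moved the other way. It stood at 14.9 and 16.1 FPKM (WT) and 10.8 and 8.90 FPKM (R111A). The groups did not overlap, and the log2 fold change was -0.61 (SE 0.15, adjusted p = 0.0090). The call was lost without WT replicate 1 (-0.66, adjusted p = 0.063) or WT replicate 2 (-0.56, adjusted p = 0.12), in a range of 0.00026 to 0.12 over its alternatives, and the direction stayed the same in each.

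Of the 8 sensors and regulators of foreign nucleic acid, 5 rose, 2 did not pass and Ifi204 was below the filter, beside 21.2% higher and 32.1% lower of all genes tested. Ddx58 and Dhx58, among those that rose, had WT means under 1 FPKM and passed the filter through their R111A level. With no filter 5 of the 8 were higher, beside 17.2% of genes. Ddx58, which encodes the RNA sensor RIG-I, measured 0.77 and 0.65 FPKM in WT against 7.59 and 6.48 FPKM in R111A. It was under 1 FPKM in both WT libraries and about 10 times higher in both R111A libraries (ratio of means 9.91, log2 fold change 2.23, SE 0.15, adjusted p = 1.3e-05).

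The related sensors moved less. Dhx58, encoding LGP2, had WT values of 0.77 and 0.78 FPKM and R111A values of 3.77 and 2.93 FPKM (log2 fold change 1.29, SE 0.15, adjusted p = 0.00020). Ifih1, encoding MDA5, stood at 3.26 and 2.75 FPKM (WT) and 5.13 and 5.24 FPKM (R111A) (log2 fold change 0.63, SE 0.14, adjusted p = 0.0061). Both genes were higher in both R111A libraries, but the Ifih1 call was lost on the TPM scale (0.37, adjusted p = 0.067) and without WT replicate 2 (0.54, adjusted p = 0.12), in a range of 0.0010 to 0.12 over its alternatives.

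Zbp1, a sensor of Z-form nucleic acid that can start necroptosis, measured 20.1 and 18.8 FPKM in WT against 47.4 and 34.3 FPKM in R111A (log2 fold change 1.02, SE 0.17, adjusted p = 0.0013). Ifi203, of the interferon-inducible family of DNA-binding PYHIN proteins, had WT values of 9.99 and 8.35 FPKM and R111A values of 18.9 and 21.4 FPKM (log2 fold change 1.06, SE 0.15, adjusted p = 0.00057). The R111A libraries were above the WT libraries for both genes. Its relative Ifi204 was at 0.07 FPKM or less in all 4 libraries, with overlapping groups.

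Adar and Eif2ak2 were the sensors and regulators that did not pass the test. Adar, the RNA-editing adenosine deaminase, stood at 24.3 and 21.7 FPKM (WT) and 26.8 and 22.2 FPKM (R111A), and the groups overlapped (log2 fold change 0.08, SE 0.15, adjusted p = 0.66). Eif2ak2, encoding the kinase PKR, ranged from 1.77 to 1.98 FPKM in WT and from 1.88 to 2.54 FPKM in R111A (log2 fold change 0.15, SE 0.16, adjusted p = 0.43). On the TPM scale the sign of both values turned, to -0.24 for Adar and -0.07 for Eif2ak2, still without passing the test. The Eif2ak2 value was 0.30 without R111A replicate 1 and 0.00 without R111A replicate 2, and that of Adar ran from -0.05 to 0.22 when 1 library was left out.

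All 5 antiviral enzymes and GTPases, of which Rsad2 and Mx1 were below the filter, were higher in both R111A libraries, as were 33.0% of all genes above 0. Isg20, an exonuclease that degrades single-stranded RNA, measured 5.70 and 4.44 FPKM in WT against 33.0 and 37.0 FPKM in R111A. The groups lay far apart, with a log2 fold change of 2.57 (SE 0.16, adjusted p = 1.0e-05). Samd9l, a restriction factor for poxviruses, had WT values of 2.63 and 2.43 FPKM and R111A values of 18.4 and 20.2 FPKM. Its replicates were close in both groups, with a log2 fold change of 2.52 (SE 0.14, adjusted p = 7.5e-06).

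Rsad2, encoding viperin, and Cmpk2, a nucleotide kinase, are neighbours on chromosome 12 (26442743 to 26479837, GRCm38.p6). Rsad2 was at 0.03 FPKM in both WT libraries and at 1.23 and 1.45 FPKM in R111A, below the filter over the 4 libraries (adjusted p = 0.0025 with no filter). Cmpk2 stood at 0.15 and 0.04 FPKM (WT) and 2.70 and 1.82 FPKM (R111A) (log2 fold change 1.56, SE 0.17, adjusted p = 0.00013). Both genes were near 0 in WT and above 1 FPKM in each R111A library. Mx1, a dynamin-like GTPase whose B6 copy RefSeq lists as a transcribed pseudogene, stayed at 0.75 FPKM or less in all 4 libraries.

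**Figure D4:**
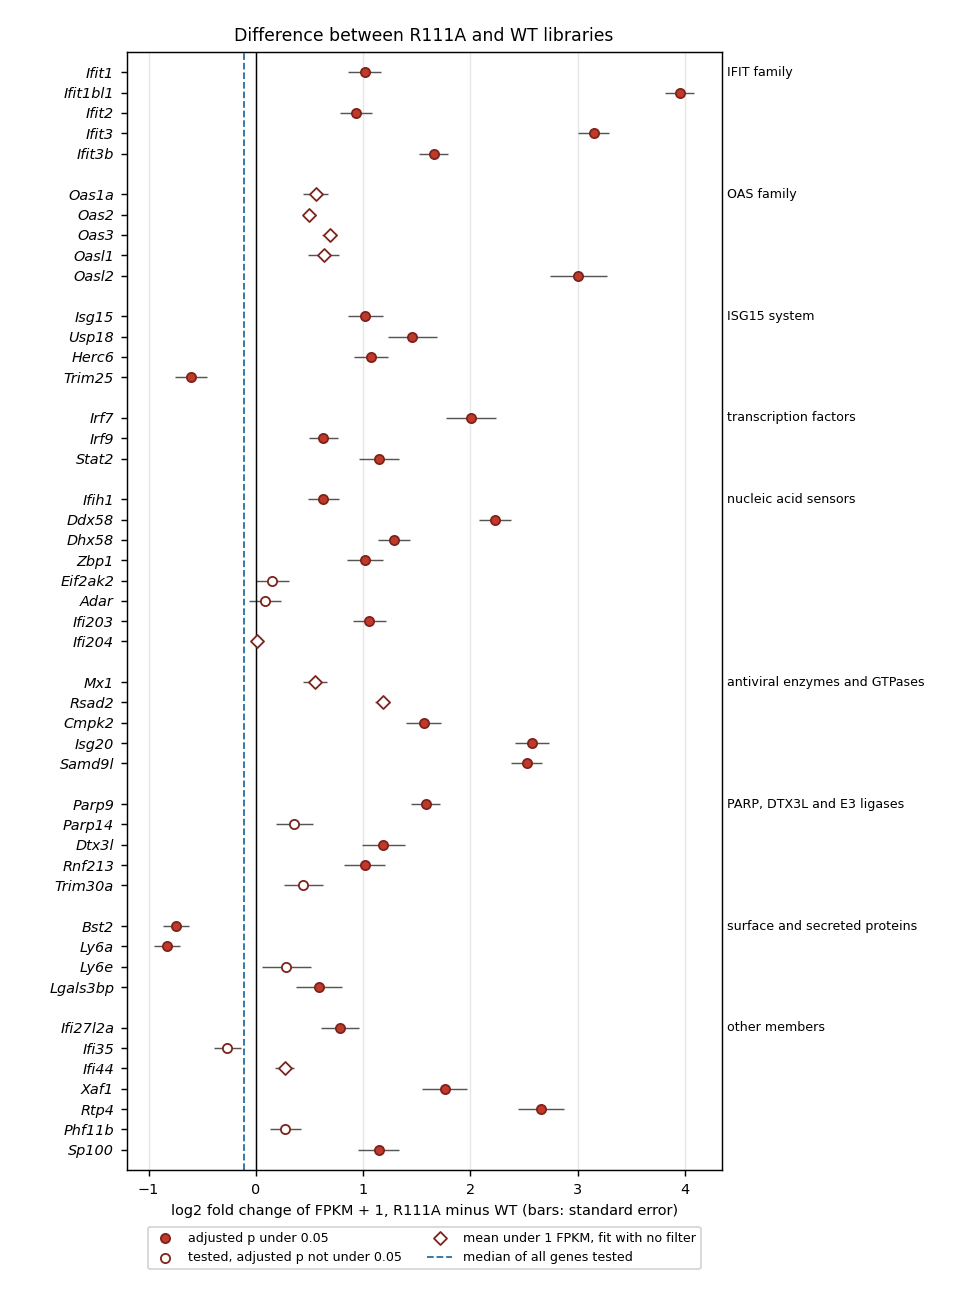
Log2 fold change of FPKM + 1, R111A minus WT, with its standard error, for each of the 46 genes by role. Filled circles passed an adjusted p of 0.05, open circles did not, diamonds were below the filter and come from the fit with no filter, and the dashed line is the median of all genes tested (-0.12); Trim25, Bst2 and Ly6a are the filled circles to the left of 0.

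Parp9, Dtx3l and Parp14 lie next to each other on chromosome 16 (35831892 to 35972621, GRCm38.p6). PARP9 and DTX3L form a complex that joins ADP-ribosylation and ubiquitination, and PARP14 is an ADP-ribosyltransferase. Parp9 measured 6.92 and 6.41 FPKM in WT against 21.5 and 22.4 FPKM in R111A (log2 fold change 1.58, SE 0.14, adjusted p = 4.3e-05). Dtx3l had WT values of 8.39 and 7.07 FPKM and R111A values of 23.2 and 15.3 FPKM (log2 fold change 1.19, SE 0.20, adjusted p = 0.0014). Both partners of the complex were higher in both R111A libraries.

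Parp14, from the same stretch, stood at 12.3 and 8.88 FPKM (WT) and 14.6 and 12.8 FPKM (R111A) (log2 fold change 0.36, SE 0.17, adjusted p = 0.11). The lowest R111A value was only just above the highest WT value, and the gene did not pass. Its value rested on single WT libraries, at 0.57 without WT replicate 1 and 0.14 without WT replicate 2, and on the scaling, at 0.05 on the TPM scale. Whether Parp14 differs from its neighbours in response was not tested.

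Rnf213, a very large E3 ligase with antimicrobial activity, measured 3.86 and 2.76 FPKM in WT against 8.99 and 6.46 FPKM in R111A (log2 fold change 1.014, SE 0.19, adjusted p = 0.0025). Trim30a, a TRIM protein of mice, had WT values of 11.8 and 10.6 FPKM and R111A values of 13.1 and 18.4 FPKM (log2 fold change 0.44, SE 0.18, adjusted p = 0.063). The R111A libraries of Trim30a were both above WT but far from each other, and without R111A replicate 1 the log2 fold change was 0.67 (adjusted p = 0.0037, in a range of 0.0037 to 0.55 over its alternatives) and without R111A replicate 2 it was 0.21. Trim30a also passed with median-of-ratios factors (0.53), with quantile normalization (0.52) and with the replicate block, and its value on the TPM scale was 0.13.

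The surface proteins included the members that fell most. Ly6a (NCBI gene 110454), which encodes the GPI-anchored antigen Sca-1 of activated T cells, stood at 277 and 270 FPKM (WT) and 148 and 159 FPKM (R111A). Both R111A libraries were far below both WT libraries, with a log2 fold change of -0.83 (SE 0.12, adjusted p = 0.00068). Of the 50-base words of Ly6a, 19.0% occur in transcripts of other genes, mostly Ly6c1.

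Bst2 (NCBI gene 69550), encoding tetherin, which holds budding virus at the cell surface, measured 93.5 and 92.4 FPKM in WT against 55.1 and 55.0 FPKM in R111A. The replicates were almost equal in either group and the groups did not overlap, with a log2 fold change of -0.75 (SE 0.12, adjusted p = 0.0012). Its promoter stretch shown above holds 2 matches to the element, so a match was found in a gene that fell as well as in genes that rose. On the TPM scale Ly6a and Bst2 were lower by more than 2-fold, at -1.16 and -1.08.

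Ly6e, a neighbour of Ly6a on chromosome 15 (74955025 to 74998031 for the pair, GRCm38.p6) that blocks entry of coronaviruses, had WT values of 85.02 and 73.95 FPKM and R111A values of 126 and 73.92 FPKM. R111A replicate 1 was the highest and R111A replicate 2 the lowest of the 4 libraries, so the groups overlapped (log2 fold change 0.28, SE 0.23, adjusted p = 0.32). The value rested on single libraries, since it was 0.66 without R111A replicate 2 (adjusted p = 0.0031) and -0.10 without R111A replicate 1 (adjusted p = 0.46), in a range of 0.0031 to 0.84 over its alternatives.

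Lgals3bp, a secreted glycoprotein that binds galectins, stood at 11.8 and 10.0 FPKM (WT) and 21.4 and 13.2 FPKM (R111A). Both R111A libraries were higher, but replicate 2 only slightly, and the log2 fold change of 0.59 (SE 0.21) barely passed (adjusted p = 0.046). It was 0.26 without R111A replicate 1 (adjusted p = 0.12), 0.92 without R111A replicate 2 and 0.48 without WT replicate 2 (adjusted p = 0.19), and the call was also lost with no filter, on the TPM scale and with a pseudocount of 5 FPKM, in a range of 0.0012 to 0.24 over its alternatives.

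Of the 7 remaining members, Ifi27l2a, a small mitochondrial or membrane protein induced by interferon, had the highest mean of the whole list over the 4 libraries, although Ly6a was higher in both WT libraries. It measured 194 and 213 FPKM in WT against 421 and 291 FPKM in R111A. The R111A libraries differed from each other by more than the WT libraries did but were both higher, with a log2 fold change of 0.78 (SE 0.18, adjusted p = 0.0061) that was 0.52 without R111A replicate 1. On the TPM scale the value was 0.45 (adjusted p = 0.025). Ifi27l2a alone made up 194 to 421 of the summed member FPKM, which was 927 and 904 FPKM in WT and 1342 and 1094 FPKM in R111A.

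Rtp4, a chaperone for some G protein-coupled receptors, had WT values of 1.23 and 1.12 FPKM and R111A values of 16.4 and 9.87 FPKM, for a log2 fold change of 2.66 (SE 0.21, adjusted p = 3.2e-05). Xaf1, which antagonises the apoptosis inhibitor XIAP, stood at 0.86 and 0.25 FPKM (WT) and 4.83 and 3.57 FPKM (R111A) (log2 fold change 1.76, SE 0.21, adjusted p = 0.00024). Sp100, a component of PML nuclear bodies, measured 27.7 and 20.95 FPKM in WT against 64.2 and 46.3 FPKM in R111A (log2 fold change 1.14, SE 0.19, adjusted p = 0.0014). In these 3 genes both R111A libraries exceeded both WT libraries, and replicate 1 was the higher within each group.

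Ifi35, a partner of NMI, had WT values of 47.7 and 50.8 FPKM and R111A values of 40.2 and 41.3 FPKM, lower in both R111A libraries without passing the test (log2 fold change -0.27, SE 0.13, adjusted p = 0.11). It passed on the TPM scale, at -0.60 (adjusted p = 0.0026), and without R111A replicate 2, at -0.28 (adjusted p = 0.036), in a range of 0.0026 to 0.62 over its alternatives. Phf11b stood at 9.24 and 10.0 FPKM (WT) and 10.9 and 12.9 FPKM (R111A) (log2 fold change 0.27, SE 0.15, adjusted p = 0.15), and 47.0% of its 50-base words are shared with other genes. It was at 0.38 and passed without R111A replicate 1 (adjusted p = 0.022, in a range of 0.022 to 0.87), was at 0.16 without R111A replicate 2, and its sign turned on the TPM scale, to -0.03. Ifi44 was at 0.36 FPKM or less in every library, below the filter.

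The other genes of the pathway were read from lists that hold no member, and the counts in these lists stand beside the 21.2% higher and 32.1% lower of all genes tested. Of 20 listed type I and type III interferon genes, 4 were rows of the table. Ifna2 and Ifnz were listed at 0 in all 4 libraries, Ifnab was at 0.16 FPKM in R111A replicate 1 alone, and Ifnk was at 0.26 FPKM in R111A replicate 2 alone. No type I or type III ligand row reached 0.3 FPKM in any library, and the other 16 were not analysed here. Ifng, the type II ligand, measured 17.3 and 16.1 FPKM in WT against 7.20 and 7.30 FPKM in R111A, lower in both R111A libraries (log2 fold change -1.10, SE 0.14, adjusted p = 0.00027).

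Of the 6 receptor chains, 1 rose, 1 fell, 3 did not pass and Ifnlr1, of the type III receptor, was at 0.04 FPKM or less. Ifnar1 measured 10.20 and 10.15 FPKM in WT against 12.6 and 13.5 FPKM in R111A (log2 fold change 0.33, SE 0.14, adjusted p = 0.068). Ifnar2 had WT values of 14.4 and 11.2 FPKM and R111A values of 10.8 and 10.9 FPKM (log2 fold change -0.21, SE 0.16, adjusted p = 0.29). Neither chain of the type I receptor passed, although their groups did not overlap. Ifnar1 passed with median-of-ratios factors (0.42, adjusted p = 0.030), quantile normalization (0.40, adjusted p = 0.035), without R111A replicate 1 (0.38, adjusted p = 0.017) and without R111A replicate 2 (0.29, adjusted p = 0.040), in a range of 0.017 to 0.90 over its alternatives, and its TPM value was 0.02. Ifnar2 passed on the TPM scale alone, at -0.52 (adjusted p = 0.018, in a range of 0.018 to 0.93), and its value rested on single WT libraries, at -0.04 without WT replicate 1 and -0.38 without WT replicate 2.

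The 2 chains of the interferon-γ receptor moved in opposite directions. Ifngr1 stood at 19.1 and 19.2 FPKM (WT) and 71.8 and 57.2 FPKM (R111A) (log2 fold change 1.70, SE 0.15, adjusted p = 4.6e-05). Ifngr2 measured 16.95 and 17.50 FPKM in WT against 11.4 and 7.07 FPKM in R111A (log2 fold change -0.87, SE 0.20, adjusted p = 0.0066). Neither gene had overlapping groups, and the value of Ifngr2 was -0.56 without R111A replicate 2. Il10rb, shared by the type III interferon and IL-10 receptors, had WT values of 14.0 and 13.9 FPKM and R111A values of 15.0 and 14.8 FPKM (adjusted p = 0.59).

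Of the 4 JAK and STAT genes read here, 1 fell and 3 did not pass. Tyk2, the kinase bound to IFNAR1, stood at 17.7 and 18.0 FPKM (WT) and 12.5 and 11.8 FPKM (R111A) (log2 fold change -0.52, SE 0.13, adjusted p = 0.011). Both R111A libraries were lower, and the call was lost without WT replicate 1 (adjusted p = 0.14) or WT replicate 2 (adjusted p = 0.17), with values of -0.53 and -0.50, in a range of 0.00039 to 0.17 over its alternatives.

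Jak1, the kinase bound to IFNAR2, had WT values of 81.4 and 75.7 FPKM and R111A values of 113 and 91.0 FPKM (log2 fold change 0.36, adjusted p = 0.062). It passed without R111A replicate 2, with a log2 fold change of 0.52 (adjusted p = 0.0040, in a range of 0.0040 to 0.85 over its alternatives), and also with median-of-ratios factors (0.46), quantile normalization (0.60) and the replicate block, while it was 0.21 without R111A replicate 1 and 0.03 on the TPM scale. Jak2, used by the interferon-γ receptor, stood at 65.8 and 70.2 FPKM (WT) and 66.4 and 80.7 FPKM (R111A), with overlapping groups (log2 fold change 0.11, adjusted p = 0.55) and values of -0.03 to 0.25 when 1 library was left out. Stat3, the main STAT of IL-6 signalling, measured 43.8 and 42.2 FPKM in WT against 40.3 and 27.3 FPKM in R111A (log2 fold change -0.36, adjusted p = 0.13), and passed without R111A replicate 1, at -0.64 (adjusted p = 0.0021), on the TPM scale, at -0.69 (adjusted p = 0.0036), and with the replicate block, in a range of 0.0021 to 0.39. Without R111A replicate 2 the Stat3 value was -0.09.

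**Figure D5:**
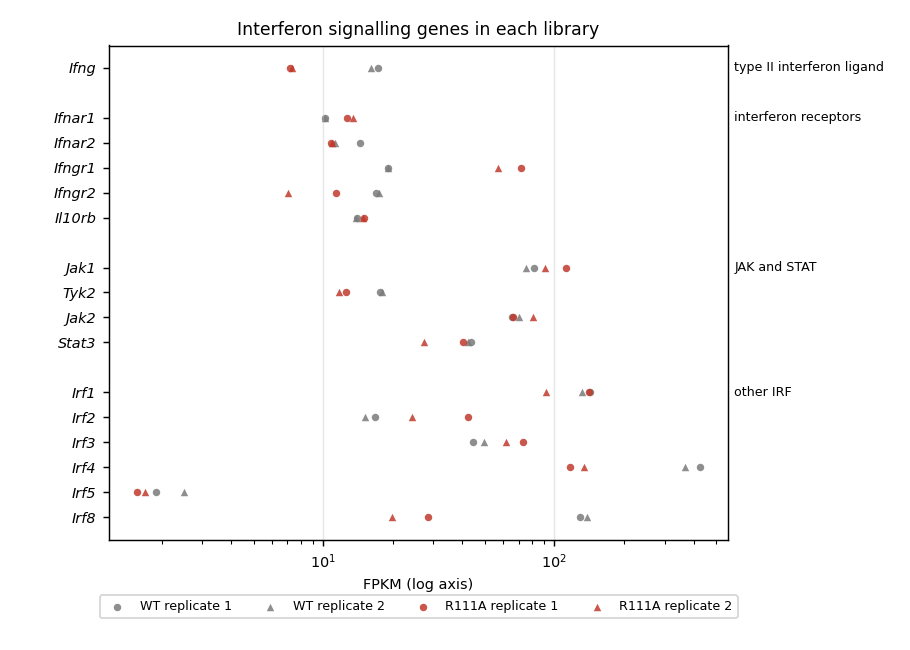
FPKM on a log axis of the interferon-γ gene, the interferon receptor chains, the JAK and STAT genes and the IRF genes read outside the member list that had a mean of at least 1 FPKM, WT in grey and R111A in red. Irf4 and Irf8 lie far lower in R111A, Ifngr1 lies higher, and the points of Ifnar1 and Ifnar2 lie close together.

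Of the 6 IRF genes read outside the member list, 2 rose, 2 fell and 2 did not pass, too few to set apart from the shares of all genes. Irf4, which T cells induce on antigen receptor signalling, had WT values of 426 and 368 FPKM and R111A values of 117 and 135 FPKM (log2 fold change -1.65, SE 0.14, adjusted p = 3.8e-05). Irf8, its relative, stood at 129 and 139 FPKM (WT) and 28.5 and 19.9 FPKM (R111A) (log2 fold change -2.44, SE 0.18, adjusted p = 1.9e-05). Both were several times lower in both R111A libraries.

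Irf2, which competes with IRF1 for the same sites, measured 16.8 and 15.1 FPKM in WT against 42.2 and 24.1 FPKM in R111A (log2 fold change 0.96, SE 0.23, adjusted p = 0.0083). Irf3, which is activated by nucleic acid sensing, stood at 44.3 and 49.8 FPKM (WT) and 73.0 and 62.0 FPKM (R111A) (log2 fold change 0.51, SE 0.14, adjusted p = 0.016). Both were higher in both R111A libraries. On the TPM scale the Irf3 value was smaller, at 0.18, and did not pass (adjusted p = 0.29), and the call was also lost without WT replicate 1 (0.43, adjusted p = 0.23) or WT replicate 2 (0.59, adjusted p = 0.077), in a range of 0.0030 to 0.29 over its alternatives. The Irf2 call was lost with no filter (adjusted p = 0.062, the highest of its range), and its value was 0.57 without R111A replicate 1.

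Irf1, an early target of interferon-γ, measured 143 and 132 FPKM in WT against 142 and 91.6 FPKM in R111A. R111A replicate 2 was the lowest and R111A replicate 1 lay between the WT libraries (log2 fold change -0.27, SE 0.20, adjusted p = 0.28), and without R111A replicate 1 the value was -0.58 (adjusted p = 0.0037, in a range of 0.0037 to 0.88 over its alternatives). It also passed on the TPM scale, at -0.60 (adjusted p = 0.0095), and was 0.04 without R111A replicate 2. Irf5 was low, at 1.90 and 2.51 FPKM in WT and 1.57 and 1.69 FPKM in R111A (log2 fold change -0.28, adjusted p = 0.15), and passed on the TPM scale and with quantile normalization, while its value was -0.42 without WT replicate 1 and -0.14 without WT replicate 2.

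Among 12 adaptors and kinases of nucleic acid sensing, 2 rose, 3 fell, 4 did not pass and 3 Toll-like receptor genes were below the filter, close to the 21.2% and 32.1% of all genes tested. Mavs, the mitochondrial adaptor of RIG-I and MDA5, had WT values of 13.1 and 11.7 FPKM and R111A values of 3.92 and 3.70 FPKM (log2 fold change -1.48, SE 0.14, adjusted p = 7.4e-05). Myd88, an adaptor of Toll-like receptors, stood at 62.7 and 60.8 FPKM (WT) and 30.4 and 26.4 FPKM (R111A) (log2 fold change -1.10, SE 0.13, adjusted p = 0.00026). Ticam1, the adaptor TRIF, measured 10.3 and 9.51 FPKM in WT against 4.91 and 3.60 FPKM in R111A (log2 fold change -1.07, SE 0.16, adjusted p = 0.00087). These 3 adaptors were lower in both R111A libraries. The 2 that rose were the kinase genes Tbk1, at 21.4 and 20.8 FPKM in WT and 32.95 and 37.98 FPKM in R111A (log2 fold change 0.72, adjusted p = 0.0026), and Ikbke, at 22.4 and 21.7 FPKM in WT and 40.8 and 36.1 FPKM in R111A (log2 fold change 0.77, adjusted p = 0.0016). On the TPM scale the values of Tbk1 and Ikbke were smaller, at 0.40 and 0.45, and both still passed.

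Of 8 negative regulators of the pathway, 1 rose, 2 fell and 5 did not pass, no more than the shares of all genes tested would give. Ptpn6, encoding the phosphatase SHP-1, had WT values of 152 and 149 FPKM and R111A values of 58.4 and 55.2 FPKM (log2 fold change -1.39, SE 0.12, adjusted p = 4.9e-05). Socs1, an inhibitor of JAK kinases, stood at 60.1 and 58.4 FPKM (WT) and 45.7 and 24.5 FPKM (R111A) (log2 fold change -0.81, SE 0.25, adjusted p = 0.024). Pias1, a SUMO ligase, measured 13.5 and 12.1 FPKM in WT against 16.9 and 16.8 FPKM in R111A (log2 fold change 0.37, SE 0.14, adjusted p = 0.048). All 3 had groups that did not overlap, and Ptpn6 differed most. The Socs1 value was -1.24 without R111A replicate 1 and -0.37 without R111A replicate 2, and its call was lost with no filter and with quantile normalization. The Pias1 call was lost without WT replicate 1 (0.45, adjusted p = 0.23), without WT replicate 2 (0.30, adjusted p = 0.45), with no filter, with the replicate block and on the TPM scale (0.06), in a range of 0.020 to 0.76.

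Of 6 genes that clear nucleic acids, 2 rose and 4 fell. The call of Trex1, one that fell, was lost by quantile normalization, by median-of-ratios scaling, when no filter was used and without WT replicate 1 (-0.50) or WT replicate 2 (-0.50), and its value was -0.28 without R111A replicate 2. The call of Dnase2a, one that rose, was lost without WT replicate 1 (0.60). Rnaseh2c, a subunit of RNase H2, had WT values of 87.7 and 103 FPKM and R111A values of 46.2 and 33.6 FPKM (log2 fold change -1.25, SE 0.17, adjusted p = 0.00051). Samhd1, which degrades deoxynucleotides, stood at 86.3 and 76.8 FPKM (WT) and 195 and 128 FPKM (R111A) (log2 fold change 0.94, SE 0.19, adjusted p = 0.0038). Rnaseh2a, the catalytic subunit of RNase H2, measured 35.4 and 32.2 FPKM in WT against 19.0 and 16.9 FPKM in R111A (log2 fold change -0.88, SE 0.14, adjusted p = 0.00097). None of the 3 had overlapping groups.

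The GBP and IRG GTPases, which attack the vacuoles of intracellular pathogens and respond strongly to interferon-γ, were read beside the members. Of these 15 genes, 11 rose, 1 fell and 3 did not pass, beside 21.2% higher and 32.1% lower of all genes tested (the calls of Gbp2, Gbp5 and Irgm1 were lost in some alternatives), and their median log2 fold change was 1.05, beside 1.04 for the 38 members and -0.12 for all genes tested. Gbp8 had WT values of 14.2 and 11.2 FPKM and R111A values of 47.2 and 58.4 FPKM (log2 fold change 1.98, SE 0.17, adjusted p = 3.9e-05), and Gbp7 stood at 8.52 and 6.48 FPKM (WT) and 29.4 and 28.5 FPKM (R111A) (log2 fold change 1.83, SE 0.16, adjusted p = 4.3e-05). Tgtp2 measured 36.7 and 34.5 FPKM in WT against 103 and 118 FPKM in R111A (log2 fold change 1.60, SE 0.13, adjusted p = 3.7e-05). These 3 were higher in both R111A libraries. Gbp2 was at 0.27 without WT replicate 2 and 0.43 without R111A replicate 1, Gbp5 at -0.59 without WT replicate 1 or WT replicate 2 and Irgm1 at 0.54 without WT replicate 2, all without a call. On the TPM scale Gbp2 was at 0.11 and Irgm1 at 0.30, also without a call, and 9 of the 15 were higher and 2 lower. No difference between the GTPases and the members was tested.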

How the data were processed

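Polyadenylated RNA of 4 libraries (2 WT and 2 R111A) was sequenced. The authors removed adaptors and low-quality bases, aligned reads to mm10 with Bowtie2 (2.4.4) and estimated expression with RSEM (1.2.28), per the submitters' notes and the methods. The authors deposited FPKM values for 16142 genes, rounded to 2 decimals. Counts were not used here, so the depth per library is unknown and the authors' DESeq2 test was not repeated.

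Groups came from the sample labels. The 9831 genes whose mean reached 1 FPKM were tested as log2(FPKM + 1) with limma 3.58.1 (lmFit and eBayes with trend) in R 4.3.3, two-sided, with Benjamini-Hochberg adjustment over all genes tested. Calls used an adjusted p under 0.05, and 2-fold where stated. The fit was tested on simulated data, where it missed small changes. Far fewer genes were changed there than were called here, so that test does not give the sensitivity of this fit. A gene that did not pass may still differ. No filter means all 14448 genes above 0 in at least 1 library, a definition set after the files were seen.

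Alternatives were pseudocounts of 0.1 and 5 FPKM, no filter or a filter at 5 FPKM, TPM rescaling, median-of-ratios factors, quantile normalization, a replicate block, robust eBayes, eBayes with no trend, and leaving out each library.

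Full values were set for Irf7, Irf9 and Stat2, for up to 8 members with the largest change in each direction past the adjusted p, for the 3 members with the highest mean, for up to 4 with the highest mean that did not pass, for the interferon ligand, receptor, JAK, STAT and IRF genes above 0, for the 3 largest changes past the adjusted p in each other pathway list, and for Zc3h12a. Every member may be named, and values of further members, of Tbk1 and Ikbke and of single markers were chosen after being seen. Members and lists were chosen with earlier results of these data known. The lists outside the members were read without 3 genes, which are not reported here and were left out after the data were seen.

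Gene positions and promoter windows came from RefSeq (GRCm38.p6) by gene ID, and words of 50 bases from GENCODE M21 transcripts, with python 3.11.15, pandas 2.3.3 and numpy 2.4.6. Figures were drawn with matplotlib 3.10.9.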

Additional observations from a re-analysis of the deposited data

How the results depend on the processing

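Of the 31 members called, 27 kept their call under every one of the 14 alternatives in which they were tested (25 higher, 2 lower), 4 lost it under at least 1 (Trim25, Irf9, Ifih1 and Lgals3bp), and 0 changed direction. Of the 27, 6 (Ifit1, Usp18, Herc6, Ddx58, Dhx58 and Xaf1) were tested in 13, and Ifit3b and Cmpk2 in 11, since a filter left them out of the others. A pseudocount of 0.1 FPKM gave a median log2 fold change of the members of 1.19 (1.32 relative to all genes tested), and a pseudocount of 5 FPKM gave 0.63 (0.71 relative) and 10 members higher by 2-fold, since the pseudocount shrinks changes of low values. With no filter the relative median was 1.014, and a filter at a mean of 5 FPKM, which left 28 members, gave 15 higher by 2-fold. TPM rescaling gave a median of 0.79, with 14 members higher and 2 lower by 2-fold. Leaving out 1 library, which assumes that the lone library of a group varies like the other group, gave medians of 0.91 to 1.18 and relative medians of 1.02 to 1.28. Fits without a WT library and with the replicate block gave very small p-values for some genes. These fits count among the alternatives, and the block sets the low end of some printed ranges, among them those of Irf9 and Ifih1, which is no stronger evidence than the main test.

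The labels number the replicates in both groups, but 2 pairs cannot show that the numbers pair libraries. The differences between replicates 1 and 2 correlated at 0.111 between the groups over the genes tested. With a replicate block, 29 members were higher, 3 lower and 23 higher by 2-fold.

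Directions that turned all belonged to genes that did not pass, and the cause was not tested. On the TPM scale the log2 fold change became -0.073 for Eif2ak2, -0.24 for Adar, -0.049 for Ly6e, -0.033 for Phf11b, -0.23 for Il10rb, -0.22 for Jak2, -0.30 for Ptpn2, -0.071 for Pias4, -0.063 for Cgas, -0.29 for Igtp, -0.31 for Irgm2 and -0.16 for the T cell marker Cd2. Ifi47 became 0.043 by median-of-ratios scaling and 0.17 by quantile normalization. Leaving out 1 library gave ranges of -0.048 to 0.22 for Adar, -0.10 to 0.66 for Ly6e, -0.033 to 0.25 for Jak2, -0.58 to 0.044 for Irf1, -0.071 to 0.14 for Ptpn2, -0.10 to 0.59 for Pias4, -0.14 to 0.22 for Igtp, -0.33 to 0.35 for Irgm2 and -0.11 to 0.018 for Ifi47. Ptpn2 was also below 0 without WT replicate 1 (-0.02), and Igtp and Irgm2 without WT replicate 2 (-0.06 and -0.09). The counts behind the values of the low members are not known here, and depth limits what these values show.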
